A study of Homo sapiens with 12 samples.

Results

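Kinesins are motor proteins that walk along microtubules. The 42 genes described here carry a platform symbol of KIF or KIFC with a number, and KIFAP3, the adaptor subunit of the kinesin-2 motor, was added. They were 42 of 19775 genes with a probe set of their own on the Affymetrix U133 Plus 2.0 array. The signal that stands for a gene is that of its probe set of highest mean over the 12 arrays, annotated to that gene alone. Of the 42 genes, 34 passed a minimum mean signal of 33.6 and were tested among 14061 genes. These were 12 of 13 mitotic kinesins, 11 of 13 transport kinesins, 7 of 11 ciliary and kinesin-2 genes and 4 of 5 other kinesins. The family was selected on the low KIF3B signal after siKDM3A in A549, so that value is a description here, with no test.

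Expression was measured in 2 human cancer cell lines, A549, a lung adenocarcinoma line grown in RPMI1640, and SW780, a bladder carcinoma line grown in Leibovitz's L-15 medium. Cells of each line received siKDM3A, an siRNA against the histone H3K9 demethylase KDM3A, or the control siRNAs siEGFP or siFFluc. All groups were transfected with lipofectamine 2000 at 100 nM for 24 h, so no group was left untransfected, and each of the 6 groups had 2 arrays. The labels do not say whether the 2 arrays of a group came from separate cultures, so p-values cover only array-to-array spread, possibly technical.

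Kinesins use ATP to move cargo or to slide and shorten microtubules. Mitotic kinesins build the spindle, align chromosomes and complete cytokinesis, and their transcripts rise as dividing cells approach mitosis. Transport kinesins carry vesicles, endosomes and mitochondria, mostly towards the cell edge. Heterotrimeric kinesin-2, made of KIF3A, KIF3B or KIF3C and KIFAP3, drives intraflagellar transport in cilia and also carries cargo in the cytoplasm.

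The promoters of 4 kinesins on which the results turn are shown to set the gene of the largest change beside the mitotic kinesins. Each is the 250 bases before the RefSeq start of the gene in GRCh38.p14, on the plus strand. They lie at chr20:32277401-32277650 (KIF3B), chr15:69414099-69414348 (KIF23), chr5:138178862-138179111 (KIF20A) and chr10:92592880-92593129 (KIF11). Capitals mark CCAAT and the cell cycle homology region, a short element known from promoters of genes active in mitosis, searched as TTTGAA or TTCGAA, each on either strand.
KIF3B: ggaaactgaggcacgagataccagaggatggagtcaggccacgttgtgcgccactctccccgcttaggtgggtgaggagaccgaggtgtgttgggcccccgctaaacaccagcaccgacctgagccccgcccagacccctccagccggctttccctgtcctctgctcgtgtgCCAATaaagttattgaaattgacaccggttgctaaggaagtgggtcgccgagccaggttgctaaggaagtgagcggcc
KIF23: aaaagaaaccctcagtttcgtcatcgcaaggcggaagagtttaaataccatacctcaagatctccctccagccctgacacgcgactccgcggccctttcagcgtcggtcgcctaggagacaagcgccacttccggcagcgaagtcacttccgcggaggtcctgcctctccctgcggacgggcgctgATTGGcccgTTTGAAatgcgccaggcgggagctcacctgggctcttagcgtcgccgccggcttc
KIF20A: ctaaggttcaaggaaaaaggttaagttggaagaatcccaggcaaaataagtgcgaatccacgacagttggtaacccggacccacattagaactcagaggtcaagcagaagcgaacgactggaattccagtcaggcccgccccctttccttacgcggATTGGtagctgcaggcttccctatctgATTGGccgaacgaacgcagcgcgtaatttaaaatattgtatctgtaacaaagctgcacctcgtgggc
KIF11: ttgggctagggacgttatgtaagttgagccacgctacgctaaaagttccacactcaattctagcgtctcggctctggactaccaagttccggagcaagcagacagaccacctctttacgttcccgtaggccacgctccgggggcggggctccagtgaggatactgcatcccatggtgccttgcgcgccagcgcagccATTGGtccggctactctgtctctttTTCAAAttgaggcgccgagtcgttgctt
KIF23 held CCAAT on the reverse strand from 64 to 60 bases before the start and TTTGAA from 55 to 50 bases before it. KIF11 held both elements on the reverse strand, from 53 to 49 and from 28 to 23 bases before the start. KIF20A held 2 CCAAT matches and KIF3B held 1, and neither held the cell cycle homology region.

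Promoters were matched for 34 of the 42 genes, several of which had more than 1 entry. The cell cycle homology region lay in 7 of 14 promoters of mitotic kinesins, in 1 of 13 of transport kinesins, in 0 of 11 of ciliary and kinesin-2 genes and in 14.3% of all 35116 promoters. CCAAT lay in 10 of 14 mitotic promoters (71.4%), 4 of 13 transport promoters, 3 of 11 ciliary and kinesin-2 promoters and 32.0% of all. The letters GTTGCC on either strand, the core of the element bound by RFX factors at many ciliary genes, lay in 3 of 11 ciliary and kinesin-2 promoters, 3 of 14 mitotic promoters, 2 of 13 transport promoters and 10.2% of all. An E2F element (TTTCGCGC, TTTGGCGC, TTTCCCGC or TTTGCCGC on either strand) lay in 1 of 14 mitotic promoters and 2.79% of all. A match describes letters in this window and does not show that a factor binds there.

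KIF3B, a motor subunit of kinesin-2, was much lower after siKDM3A in both lines. In A549 its signal, in MAS5 units on a linear scale, was 2113 and 2082 with siEGFP, 1524 and 1588 with siFFluc, and 349 and 329 with siKDM3A. In SW780 it was 2431 and 2515 with siEGFP, 2440 and 2383 with siFFluc, and 933 and 1135 with siKDM3A. Both siKDM3A arrays lay below all 4 control arrays in each line. The mean in A549 went from 1827 ± 314 (SD, n = 4) to 339 ± 13.8 (SD, n = 2), which was 18.6% of the controls and a log2 change of -2.36 ± 0.08 (SE), given without a test. In SW780 it fell from 2442 ± 54.9 (SD, n = 4) to 1034 ± 143 (SD, n = 2), which was 42.3%, a log2 change of -1.23 ± 0.08 (limma, adjusted p = 2.48e-06). All log2 changes are of log2(signal + 16), which understates the change of dim genes, and adjusted p-values are limma's with the Benjamini-Hochberg adjustment over 14061 genes. In bulk RNA, fewer cells that make a transcript and less of it per cell cannot be told apart. KDM3A, the target of the siRNA, was left at 50.5% of the controls in A549 and 53.3% in SW780. Whether the decrease of KIF3B followed from loss of KDM3A or from another effect of siKDM3A was not tested.

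From high to low, the KIF3B signal ran from SW780 siEGFP (2473 ± 59.7) and SW780 siFFluc (2411 ± 40.4), whose arrays overlapped, through A549 siEGFP (2097 ± 21.6), A549 siFFluc (1556 ± 44.6) and SW780 siKDM3A to A549 siKDM3A. Arrays of the groups from A549 siEGFP downwards did not overlap with those of the next. Among the controls of A549, KIF3B was lower with siFFluc than with siEGFP, by 0.43 ± 0.09 on the log2 scale (limma, adjusted p = 0.0267), so its decrease in A549 was -2.57 against siEGFP and -2.15 against siFFluc. These A549 control arrays also entered the value on which the family was selected. That control difference was no longer called when any A549 control array or any SW780 siEGFP array was left out (limma, adjusted p from 0.0502 to 0.198) or on the other probe set. In SW780 siFFluc minus siEGFP was -0.04 ± 0.09 (limma, adjusted p = 0.877), and the decrease was -1.25 against siEGFP and -1.22 against siFFluc. The decrease in SW780 was 1.13 ± 0.12 log2 units smaller than in A549, again a description with no test.

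The other probe set of KIF3B gave smaller changes in the same direction. Its A549 signals were 1032 and 1161 with siEGFP, 932 and 893 with siFFluc, and 331 and 261 with siKDM3A, a log2 change of -1.71. Its SW780 signals were 1420 and 1362, 1490 and 1265, and 741 and 738, a log2 change of -0.89 (limma, adjusted p = 0.000305 over probe sets). The arrays with siKDM3A were again below every control array of their line.

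**Figure D1:**
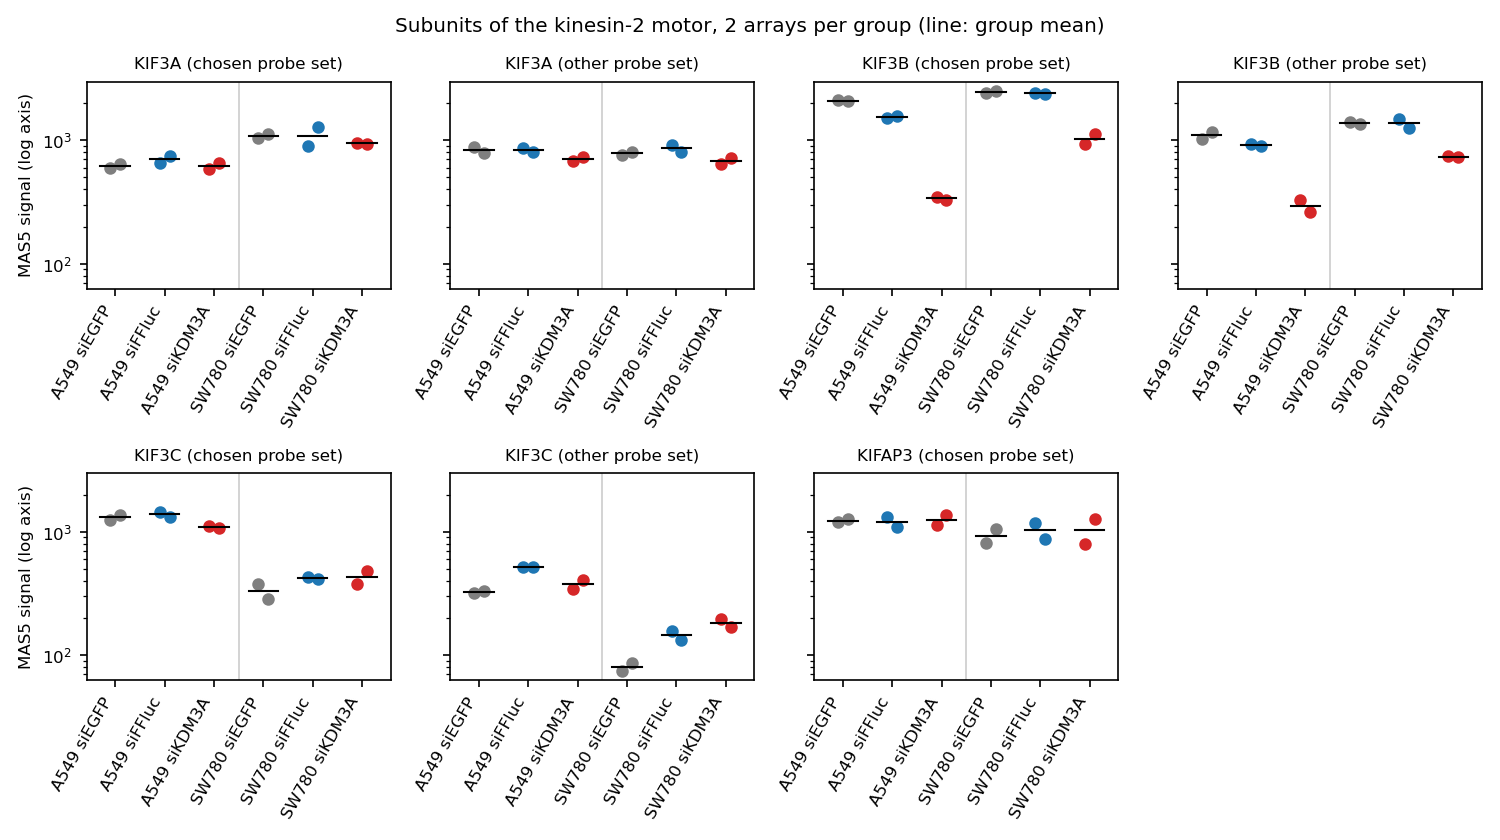
MAS5 signal (log axis) of each probe set of KIF3A, KIF3B, KIF3C and KIFAP3 that passed the filter on 12 arrays, with 1 point per array, a bar at the mean of the 2 arrays of a group, and panels divided by line. On both KIF3B probe sets the siKDM3A arrays lie below all controls of their line, at 349 and 329 in A549 and 933 and 1135 in SW780 on the chosen one.

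The partners of KIF3B in kinesin-2 did not pass the test in either line. KIF3A, the motor subunit that pairs with KIF3B, was measured at 595, 646, 654 and 750 in the A549 controls against 587 and 657 with siKDM3A (-0.08 ± 0.13, limma, adjusted p = 0.754). In SW780 it was 1048, 1132, 894 and 1284 in the controls against 956 and 942 (-0.18 ± 0.13, 95% interval -0.46 to 0.09, adjusted p = 0.399). On the other KIF3A probe set both siKDM3A arrays lay below all controls of their line, at 677 and 729 against 795 to 877 in A549 (-0.24, limma, adjusted p = 0.141 over probe sets) and 643 and 719 against 762 to 921 in SW780 (-0.27, 0.101). KIFAP3 changed by 0.04 ± 0.18 in A549 and 0.05 ± 0.18 in SW780 (limma, adjusted p = 0.927 and 0.909), with overlapping arrays in both lines. KIF3C, the other partner of KIF3A, was 1249, 1367, 1461 and 1327 in the A549 controls and 1116 and 1074 with siKDM3A. Both of those arrays lay below the controls, without passing the threshold (-0.30 ± 0.12, limma, adjusted p = 0.148). In SW780 KIF3C changed by 0.19 ± 0.12 (adjusted p = 0.374). Its other probe set was higher there, at 195 and 171 with siKDM3A against 74.5 and 86.6 with siEGFP and 157 and 134 with siFFluc (0.67, limma, adjusted p = 0.0125 over probe sets), and on it siFFluc was also above siEGFP (0.74, adjusted p = 0.0302).

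Of the remaining ciliary kinesins, KIF17, KIF7, KIF24 and KIF27 did not pass the filter. KIF9, a motor of motile cilia and sperm flagella, rose in SW780 from 915, 829, 736 and 840 in the controls to 1059 and 1256 (0.47 ± 0.10, limma, adjusted p = 0.00768), with both arrays above all controls. Leaving out SW780 siKDM3A replicate 2 ended that call (adjusted p = 0.119), siEGFP as the only control did too (0.0538), and none of the other 3 probe sets of KIF9 passed. In A549 KIF9 changed by 0.02 (limma, adjusted p = 0.928). KIF19 and KIF6 were dim, with signals between 2.0 and 87.0 on all arrays, and passed in neither line.

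Apart from KIF3B, 3 of 33 kinesins passed the threshold in A549, 2 higher and 1 lower, where 11.7% of all genes did. They were KIF20A, KIF23 and KIF5C. The siKDM3A arrays lay above all controls for 5 of the 33 (17.0% of all genes) and below them for 5 (19.9%). In SW780 9 of 34 passed, 7 higher and 2 lower, against 11.8% of all genes, and arrays lay above all controls for 7 (15.3% of all genes) and below them for 2 (13.3%). The mitotic kinesins supplied 2 of the calls in A549 and 4 in SW780, all higher, and for single directions the background was 5.33% higher and 6.35% lower in A549 and 5.68% and 6.15% in SW780. With 2 arrays per group these counts were unstable. In A549 the count was 0 against siEGFP alone (7 at an unadjusted p under 0.05) and 3 against siFFluc alone, 1 without either siFFluc array and 0 without siKDM3A replicate 2 (2 at an unadjusted p under 0.05). In SW780 it was 3 against siEGFP alone and 9 against siFFluc alone, 5 without siKDM3A replicate 1 and 4 without replicate 2.

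**Figure D2:**
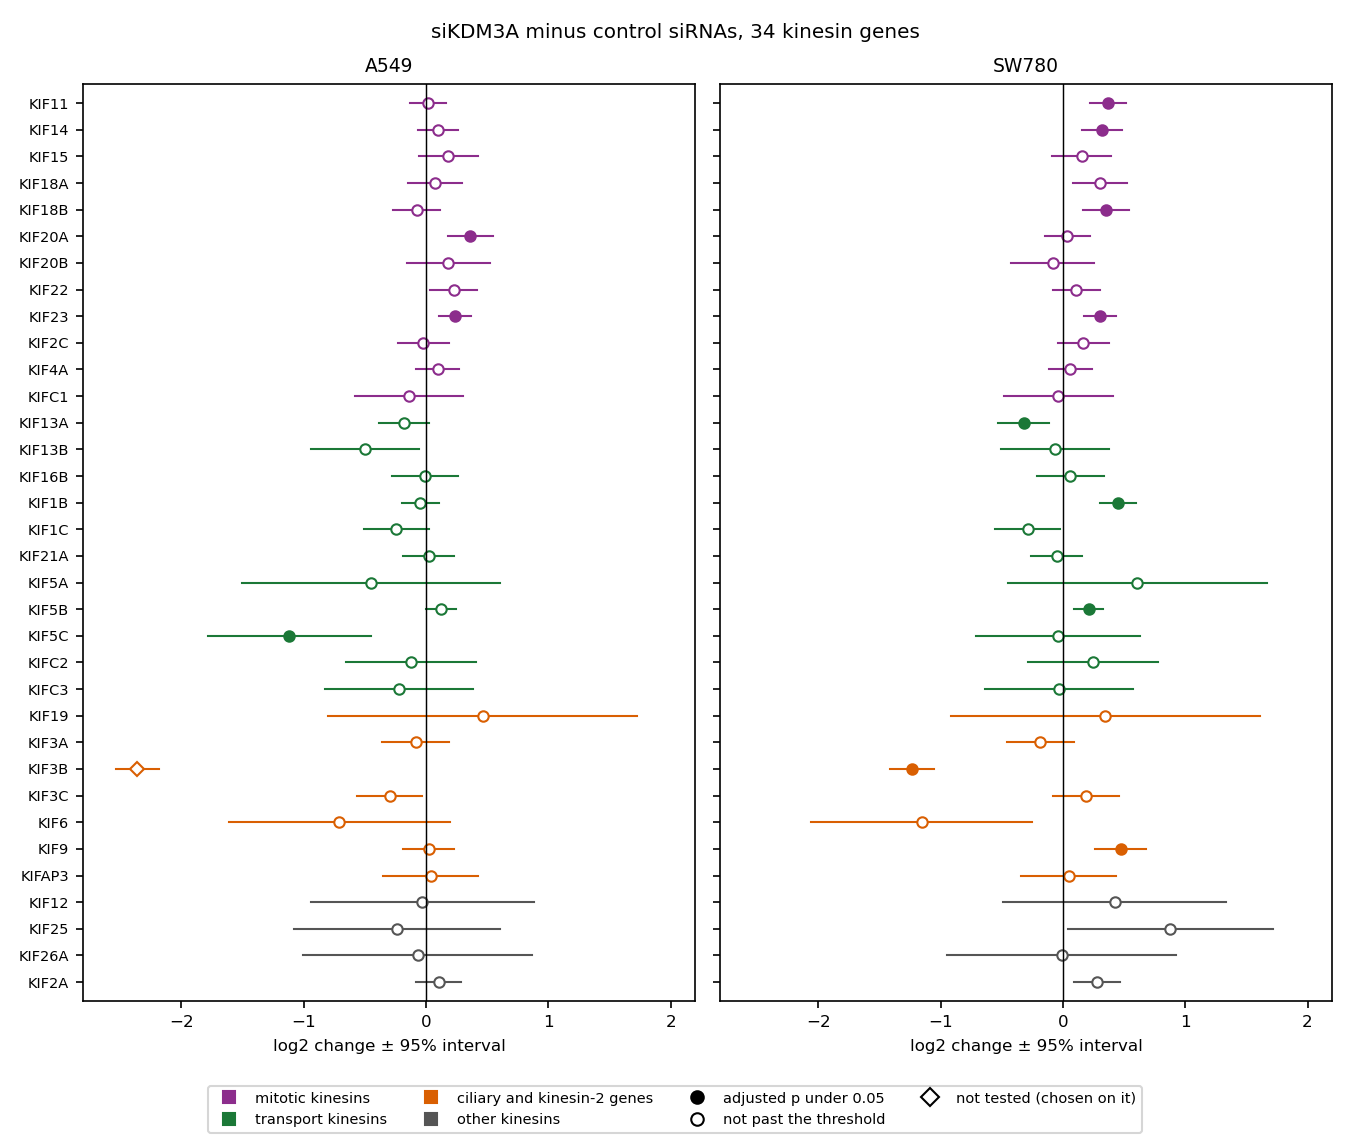
Log2 change with its 95% interval, siKDM3A minus the mean of the control siRNAs, for 34 kinesin genes by role, in A549 (left) and SW780 (right), where a filled point has a limma adjusted p under 0.05. KIF3B lies at -2.36 in A549, drawn as an open diamond because it was not tested there, and at -1.23 in SW780, while the called mitotic kinesins lie between 0.24 and 0.37.

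The mitotic kinesins as a group sat slightly high after siKDM3A. Their median log2 change was 0.10 in A549, with 9 of 12 above 0, and 0.16 in SW780, with 10 of 12 above 0, beside -0.02 and 0.03 for all genes tested. The size depended on the control. Against siFFluc alone the medians were 0.16 and 0.28 with 12 of 12 above 0 in both lines, and against siEGFP alone they were 0.06 and 0.06 with 8 and 9 above 0. Transport kinesins had medians of -0.18 in A549, with 9 of 11 below 0, and -0.03 in SW780. The ciliary and kinesin-2 genes without KIF3B had -0.03 and 0.12. Where each array was instead divided by its median signal, the median of all genes moved to 0.13 in A549 and -0.07 in SW780. Relative to that, the mitotic median was then still higher in both lines, at 0.25 and 0.06, and the transport median lower, at -0.02 and -0.12.

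**Figure D3:**
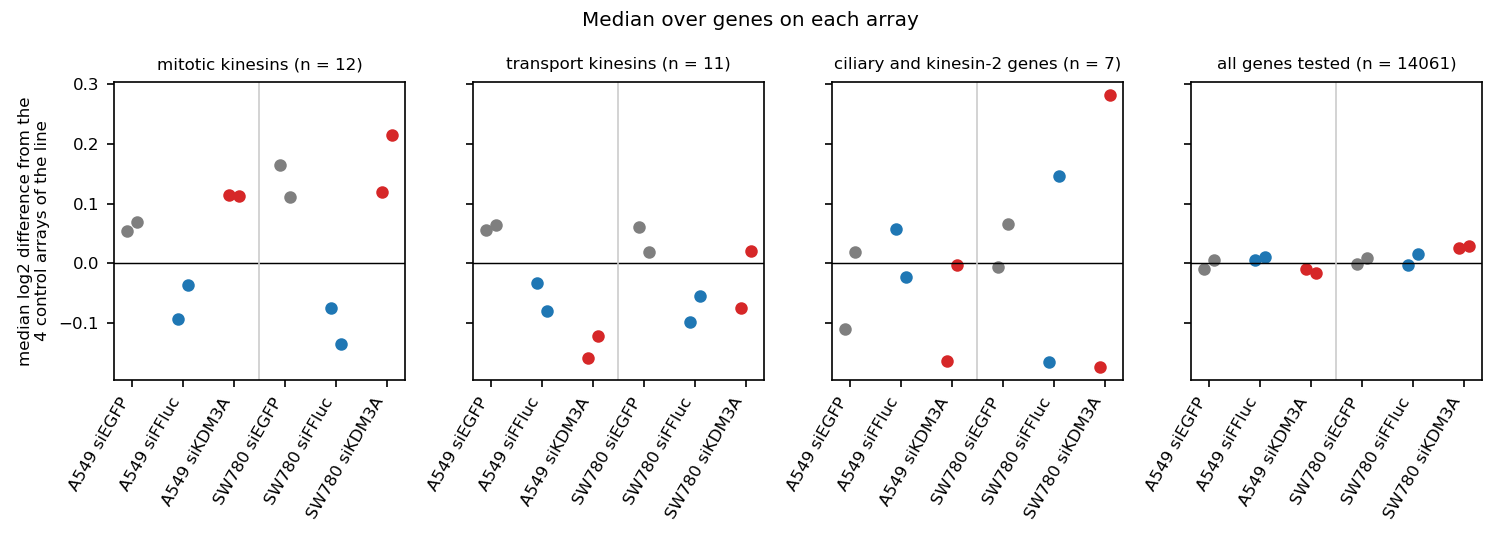
Median over the genes of a role of each array's log2 difference from the mean of the 4 control arrays of its line, with 1 point per array and siRNAs in colour. The mitotic kinesins of the siKDM3A arrays lie at 0.11 and 0.11 in A549 and 0.12 and 0.21 in SW780, those of siEGFP at 0.05 and 0.07 and at 0.16 and 0.11, and those of siFFluc below 0 on all 4 arrays.

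KIF23, the motor of the centralspindlin complex that organises the cytokinetic midzone, was the kinesin called higher in both lines. In A549 it went from 3765 and 3764 with siEGFP and 3366 and 3366 with siFFluc to 4235 and 4180 (0.24 ± 0.06, limma, adjusted p = 0.0225). In SW780 it went from 2857, 2785, 2160 and 2387 to 3216 and 3030 (0.30 ± 0.06, adjusted p = 0.00686). All siKDM3A arrays lay above all controls of their line, siEGFP included. Against siEGFP alone the changes were 0.16 (adjusted p = 0.201) and 0.15 (0.260). The A549 call was lost without either siKDM3A array or either siFFluc array (adjusted p from 0.0590 to 0.174), and the SW780 call without siKDM3A replicate 1 (0.0899). The other probe set of KIF23 rose by 0.75 in SW780 (limma, adjusted p = 0.0121 over probe sets), from 186, 205, 122 and 180 to 292 and 300, and changed by 0.53 in A549 (0.0550).

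KIF20A, which brings the chromosomal passenger complex with AURKB to the central spindle, rose in A549. Its signals were 2454 and 2584 with siEGFP, 2054 and 2090 with siFFluc, and 2908 and 2976 with siKDM3A (0.36 ± 0.08, limma, adjusted p = 0.0160). Leaving out siKDM3A replicate 1 or 2 ended the call (adjusted p = 0.103 and 0.139), as did siEGFP as the only control (0.22, adjusted p = 0.203). In SW780 the arrays overlapped, at 2406 and 2931 against 2429 to 2882 in the controls (0.04, adjusted p = 0.840). The difference in response between the lines, -0.33, was not called (limma, adjusted p = 0.172).

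KIF11, the kinesin-5 that pushes spindle poles apart, rose in SW780 from 1872, 1993, 1673 and 1598 to 2190 and 2419 (0.37 ± 0.07, limma, adjusted p = 0.00445). In A549 it stood at 2766 and 2963 inside the control range of 2597 to 3004 (0.02, adjusted p = 0.922). KIF14, which acts with citron kinase in cytokinesis, rose in SW780 from 1102, 1234, 1256 and 1237 to 1472 and 1549 (0.32 ± 0.08, adjusted p = 0.0163), and it was one of the 3 SW780 calls kept against siEGFP alone, with KIF3B and KIF1B. Against siFFluc alone it was not called (adjusted p = 0.0563). Its other probe set was called as well (0.37, limma, adjusted p = 0.0149 over probe sets). KIF18B, a kinesin-8 that shortens astral microtubules, was called at 0.35 ± 0.09 (adjusted p = 0.0216), with signals of 1349 and 1647 against 1398 and 1356 with siEGFP and 992 and 978 with siFFluc. Its arrays overlapped those of siEGFP, and against siEGFP alone the change was 0.11 (adjusted p = 0.591). Leaving out SW780 siKDM3A replicate 2 ended the calls of KIF11 (adjusted p = 0.0765), KIF14 (0.139) and KIF18B (0.268). KIF14 also lost it without siKDM3A replicate 1 (0.0692) or siEGFP replicate 1 (0.0560), and KIF18B without siEGFP replicate 2 (0.0607). With arrays divided by their medians, no mitotic kinesin was called in SW780 (4 of 12 at an unadjusted p under 0.05), with KIF11 at an adjusted p of 0.0682 and KIF23 at 0.0697 (limma).

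Among transport kinesins, KIF1B, a kinesin-3 that carries mitochondria and vesicle precursors, rose in SW780. Its signals went from 1278 and 1277 with siEGFP and 1005 and 1098 with siFFluc to 1574 and 1598 with siKDM3A (0.45 ± 0.07, limma, adjusted p = 0.00127). The arrays stood apart from all controls, and the call held against siEGFP alone (0.31, adjusted p = 0.0364), against siFFluc alone (0.59, adjusted p = 0.000509) and without any single array. Another probe set of KIF1B rose by 0.38 (limma, adjusted p = 0.0237 over probe sets), while a dimmer probe set changed by 0.10 (0.706). In A549 KIF1B was 1440 and 1376 against 1634, 1670, 1252 and 1300 (-0.04, adjusted p = 0.757). The response in SW780 exceeded that in A549 by 0.49 ± 0.10 (limma, adjusted p = 0.0250), the 1 of 33 kinesins called for a difference between lines, where 2.75% of all genes were called, 1.78% higher and 0.974% lower. That call was lost against either control alone (limma, adjusted p = 0.0533 and 0.0534), with arrays divided by their medians (0.24, adjusted p = 0.159), with an untrended prior variance (adjusted p = 0.0757), with all kept probe sets averaged (0.23, adjusted p = 0.336) and on both other probe sets (0.03 and 0.19). It was also lost without either siKDM3A array of either line, either A549 siFFluc array or either SW780 siEGFP array (0.0512 to 0.148).

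KIF5B, the widely expressed heavy chain of kinesin-1, was called at 0.21 ± 0.06 in SW780 (limma, adjusted p = 0.0289), from 5729, 6090, 5179 and 5234 to 6678 and 6167. Its probe sets did not give 1 answer. On the next brightest the SW780 change was -0.14 (adjusted p = 0.356 over probe sets) and the A549 change was 0.42 (0.00681), from 5777, 5000, 4618 and 4539 to 6552 and 6775. The call on the chosen probe set was also lost without SW780 siEGFP replicate 1, SW780 siKDM3A replicate 1 or either A549 siKDM3A array (limma, adjusted p from 0.0527 to 0.254). KIF13A, a kinesin-3 of recycling endosomes, fell in SW780 from 3074, 3161, 2851 and 3709 to 2530 and 2562 (-0.32 ± 0.10, adjusted p = 0.0462). That call was lost against either control alone (limma, adjusted p = 0.148 and 0.0512) and without any of 8 arrays, namely both siEGFP and both siKDM3A arrays of SW780 and both siFFluc and both siKDM3A arrays of A549 (0.0657 to 0.210). KIF5C, a kinesin-1 heavy chain best known from neurons, was dim in A549, at 89.2, 80.0, 117 and 92.3 in the controls and 69.5 and 14.0 with siKDM3A (-1.12 ± 0.31, limma, adjusted p = 0.0345). Without siKDM3A replicate 2 the change was -0.36 (adjusted p = 0.428). Leaving out any A549 control array, either SW780 siEGFP array or either SW780 siKDM3A array also ended the call, at adjusted p from 0.0503 to 0.0896.

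Several of the same kinesins also differed between siEGFP and siFFluc. In A549 4 of 34 kinesins were lower with siFFluc than with siEGFP and 0 were higher, against 2.92% of all genes called, 1.43% higher and 1.49% lower. The siFFluc arrays lay above both siEGFP arrays for 7 (24.4% of all genes) and below both for 14 (21.7%). Besides KIF3B these were KIF18B (2575 and 2728 against 2024 and 1728, -0.50 ± 0.10, limma, adjusted p = 0.0176), KIF1B (-0.37 ± 0.08, 0.0233) and KIF2A, a kinesin-13 that depolymerises microtubules (3934 and 3173 against 2448 and 2810, -0.43 ± 0.10, 0.0363). The other KIF2A probe set changed by -0.09 (limma, adjusted p = 0.947 over probe sets), and averaging the kept KIF2A probe sets gave -0.26 (0.418). In SW780 3 of 34 were lower and 0 higher, against 5.57% of all genes called, 2.97% higher and 2.60% lower. Here siFFluc lay above siEGFP for 3 (23.6% of all genes) and below it for 16 (22.3%). They were KIF18A, a kinesin-8 that dampens chromosome movement (321 and 357 against 248 and 214, -0.53 ± 0.12, adjusted p = 0.0238), KIF18B (-0.48 ± 0.10, 0.0196) and KIF23 (-0.31 ± 0.07, 0.0242). The mitotic median of siFFluc minus siEGFP was -0.13 in A549, with 9 of 12 below 0, and -0.24 in SW780, with 11 of 12 below 0, beside 0.01 and 0.00089 for all genes. The counts in both lines fell to 0 without siEGFP replicate 1 of the line (limma, 7 in A549 and 11 in SW780 at an unadjusted p under 0.05). The A549 count was also 0 without siFFluc replicate 2 (6), 1 without siEGFP replicate 2 or siFFluc replicate 1, and 2 without either SW780 siEGFP array. The SW780 count was 0 without siEGFP replicate 2 (9) and 6 without siFFluc replicate 2.

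Many kinesins differed between the lines. Each line was grown in its own medium, so line and medium cannot be told apart, here or in the differences in response. In control arrays 27 of 34 kinesins differed between SW780 and A549, 6 higher and 21 lower in SW780, at a background of 68.9% of all genes called, 30.1% higher and 38.8% lower. All SW780 control arrays lay above those of A549 for 4 kinesins (25.3% of all genes) and below them for 19 (33.8%). All 12 mitotic kinesins differed, 11 of them lower in SW780, with a median of -0.89 beside -0.11 for all genes. After quantile scaling or division by the array median, 11 of 12 were called and the mitotic median was -0.81 and -0.73, beside -0.04 and 0.03 for all genes. KIF18A differed most among them, at 1205, 1194, 1083 and 1104 in A549 against 321, 357, 248 and 214 in SW780 (-1.98 ± 0.08, limma, adjusted p = 1.73e-10). In order of p-value, KIF14 (-1.03), KIF4A (-0.87), KIF18B (-0.93) and KIF22 (-0.90) followed. KIF4A is a chromokinesin of the central spindle, and KIF22 is a chromokinesin that pushes chromosome arms from the poles. KIF20A was the exception, at 2454, 2584, 2054 and 2090 in A549 and 2882, 2477, 2588 and 2429 in SW780 (0.18 ± 0.07, adjusted p = 0.0348), with overlapping arrays, and it was not called between the siEGFP arrays alone (0.08). It was named after its values were seen.

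The other roles were mixed. Of 11 transport kinesins 2 were higher and 7 lower in SW780, with a median of -0.54. KIF5B was lower, at 5729, 6090, 5179 and 5234 against 10064, 10259, 9302 and 9161 in A549 (-0.80 ± 0.05, limma, adjusted p = 3.54e-09), and it was lower on both other probe sets too. KIF5C went the other way, at 337, 340, 453 and 408 in SW780 against 80.0 to 117 in A549 (1.86 ± 0.25, adjusted p = 1.89e-05). KIF1C, a kinesin-3 of Golgi and integrin traffic, was lower (-1.25), although its other probe set past the filter gave -0.06, and KIFC3, a motor that walks towards the minus end, was lower as well (-1.43). KIF1B was called lower on the chosen probe set (-0.32) and higher on a dimmer probe set (0.75). In kinesin-2, KIF3C was lower in SW780, at 376, 284, 428 and 412 against 1249 to 1461 in A549 (-1.82 ± 0.10, limma, adjusted p = 2.69e-09), with -1.78 on its other probe set. KIF3B was higher (0.43 ± 0.07, limma, adjusted p = 6.12e-05), with 0.46 on its other probe set. Its A549 control arrays also entered the value that selected the family, so this p-value is not independent of that choice. KIF3A was higher on the chosen probe set (0.70 ± 0.10, adjusted p = 4.17e-05) and at -0.02 on the other, and KIFAP3 was not called (-0.32 ± 0.15, adjusted p = 0.0670). KIF9 was lower (-1.25). Its other kept probe sets gave -0.85 (limma, adjusted p = 1.05e-05 over probe sets), -0.82 (0.0799) and -0.43 (0.0719). Of the remaining kinesins, KIF2A was higher (0.35) and KIF26A stood at 45.8, 56.2, 5.2 and 3.1 in SW780 against 201, 162, 101 and 203 in A549. Its SW780 control mean of 27.6 lay under the filter and its A549 control mean was 167, so it passed through A549 and its difference (-2.27 ± 0.35, and -1.56 between siEGFP arrays alone or -2.99 between siFFluc arrays alone) is given as a description. The count of 21 lower kinesins holds it.

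**Figure D4:**
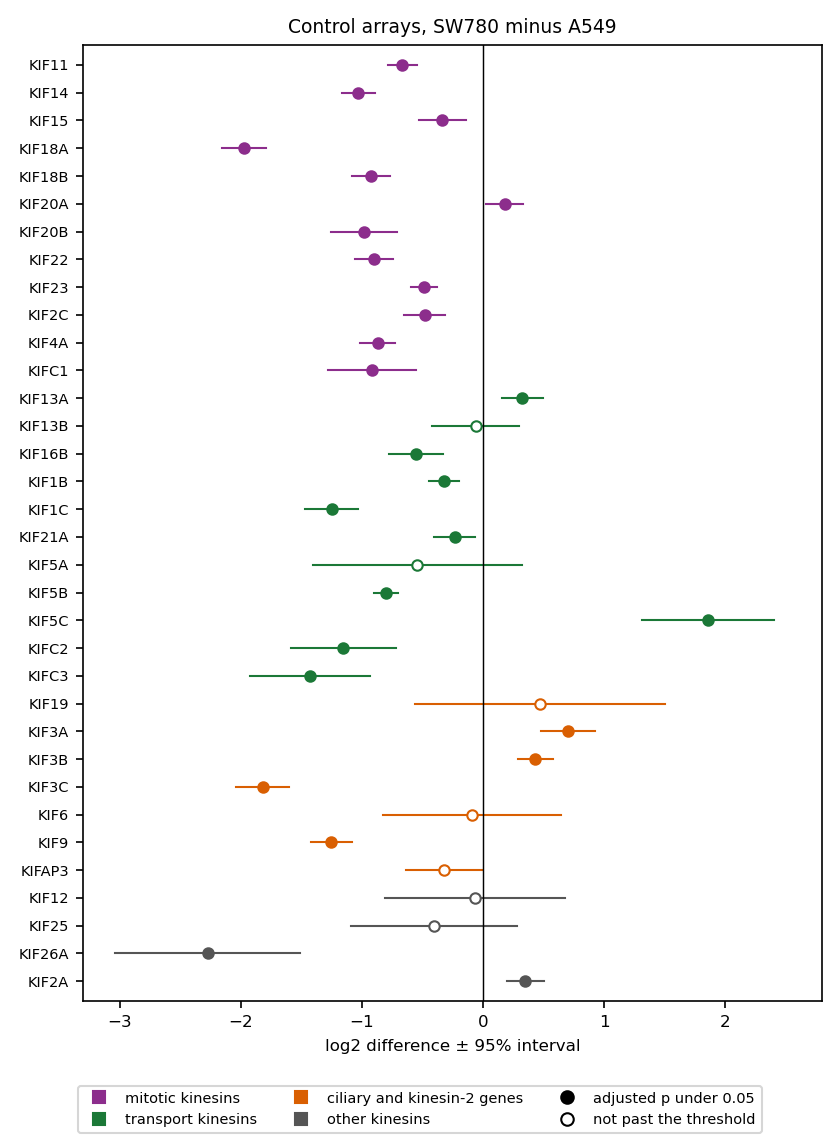
Log2 difference with its 95% interval between control arrays, SW780 minus A549, for 34 kinesin genes by role, where a filled point has a limma adjusted p under 0.05. Of the 12 mitotic kinesins 11 lie left of 0, down to -1.98 for KIF18A, while KIF5C lies at 1.86 and KIF3C at -1.82.

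Genes that work with the kinesins were counted over 4 lists. The list of mitotic partners also holds CENPE, itself a mitotic kinesin, which the symbol rule left out of the family. Of 15 tested partners of mitotic kinesins, 4 were higher and 0 lower in A549, and 5 higher and 1 lower in SW780. Over all genes 5.33% were higher and 6.35% lower in A549, and 5.68% and 6.15% in SW780. AURKB, the kinase carried by KIF20A, rose from 2950 ± 174 (SD, n = 4) to 3790 ± 2.97 (SD, n = 2) in A549 (0.36, limma, adjusted p = 0.00240) and from 777 ± 67.5 to 1079 ± 11.2 in SW780 (0.47, 0.000536). The cytokinetic scaffold ANLN rose by 0.49 and 0.28, and the spindle proteins HMMR, by 0.23 and 0.59, and NUSAP1, by 0.22 and 0.22. ECT2, a cytokinesis protein recruited by centralspindlin, rose by 0.38 in SW780, while BIRC5, a subunit of the chromosomal passenger complex, fell by 0.21 there (adjusted p = 0.0428). The list's medians were 0.19 and 0.09. For siFFluc minus siEGFP the list's medians were -0.11 in A549 and -0.10 in SW780. Between these controls 1 of the 15 was higher and 1 lower in A549, and 0 were higher and 2 lower in SW780. Over all genes 2.92% and 5.57% were called. Changes of the partners against each control alone are not given here.

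Intraflagellar transport and dynein-2, the ciliary cargo trains and return motor that work with kinesin-2, had 23 of 28 genes tested. In A549 1 was higher, IFT20 (0.27, limma, adjusted p = 0.0208), and 1 lower, IFT88 (from 1013 ± 84.6 to 690 ± 25.7, -0.54, 0.00340). In SW780 IFT20 was higher (0.31, adjusted p = 0.0115) and 2 dim genes were lower, IFT122 (102 ± 18.3 to 37.4 ± 8.63) and DYNC2I1 (108 ± 31.7 to 19.1 ± 12.8). These 2 of 23 in A549 and 3 of 23 in SW780 stand beside 11.7% and 11.8% of all genes called, so the list's share lay near the background. The list's medians were -0.06 and 0.08. Of 15 tested kinesin light chains and cargo adaptors, 0 were called in A549 (3 at an unadjusted p under 0.05), and in SW780 1 was, the light chain KLC1 (-0.37, limma, adjusted p = 0.00968). Of 18 tested genes of cytoplasmic dynein 1 and dynactin, the motor complex that walks against most kinesins, the light intermediate chains DYNC1LI1 and DYNC1LI2 were higher (0.28 and 0.28) and the dynactin subunit DCTN4 lower (-0.42) in A549. In SW780 the heavy chain DYNC1H1 and the dynactin subunit DCTN1 were lower (-0.53 and -0.56). The counts of both lists, 0 and 1 of 15 and 3 and 2 of 18, read against the same 11.7% and 11.8% of all genes.

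The genes whose log2 signals followed KIF3B most closely over the 12 arrays were EIF1AD (Pearson r = 0.988), CDC23 (0.981), CSNK1G1 (0.979), UBA6 (0.970) and LYRM7 (0.969), described without a p since all arrays share the siKDM3A and line groups. CDC23 is a subunit of the anaphase-promoting complex and UBA6 activates ubiquitin. CDC23 stood at 2826, 2852, 2798 and 2591 in the A549 controls and 1458 and 1383 with siKDM3A, and at 3301, 3409, 3217 and 3589 in the SW780 controls and 2154 and 2087 with siKDM3A. UBA6 went from 2013, 1962, 1870 and 1723 to 651 and 618 in A549 and from 3387, 3248, 3120 and 2959 to 1449 and 1454 in SW780. Both were lower with siKDM3A on every array of both lines, but they were picked for following KIF3B over these same arrays. Their decrease is thus part of that choice and adds no support. The kinesin most like KIF3B was KIF13A, at an r of 0.717.

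KDM3A itself went from 1391 ± 106 (SD, n = 4) to 702 ± 14.1 (SD, n = 2) in A549 and from 394 ± 33.6 to 210 ± 18.5 in SW780, leaving 50.5% and 53.3% (limma, adjusted p = 8.34e-05 and 0.000274). The median signal of the siKDM3A arrays was below that of the controls in A549 (53.1 and 51.9 against 57.4 to 59.1) and above it in SW780 (58.1 and 54.3 against 50.3 to 54.2). The ratio of the beta-actin 3' to 5' control probe sets moved with siKDM3A too, to 1.16 and 1.19 against 1.20 to 1.29 in A549 and to 1.51 and 1.61 against 1.39 to 1.44 in SW780, and its part in the kinesin changes was not tested. All 6 epithelial markers had signals above 100 in every group. Of 8 lung markers measured, 2 to 4 did in A549 and 2 or 3 in SW780, with NKX2-1, SFTPD and SCGB1A1 under the filter, and of 9 urothelial markers 6 or 7 did in SW780, without UPK3A, and 5 in A549. No leukocyte marker of 5 did, with summed signals of 66.3 to 180 over all arrays. Of 7 fibroblast markers 2 or 3 did, with summed signals in A549 of 1010 to 1136 with siKDM3A against 1351 to 1377 in the controls, and in SW780 of 676 to 692 against 506 to 938, and their part was not tested either.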

How the data were processed

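Total RNA was measured on 12 arrays, and the authors deposited 1 value table of MAS5 signal intensities on a linear scale, named as MAS5 without a version in the submitters' processing notes. The 2% trimmed mean was 500.1 on every array, so the deposited intensities had been scaled to 1 target. Scan files and detection calls were not analysed here, so whether a dim probe set lay above background is unknown, and the number of arrays limits the precision.

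The 62 control probe sets were removed. Symbols came from the platform annotation, updated through gene numbers with a RefSeq table of GRCh38.p14 used for names alone, and promoters from RefSeq, GRCh38.p14. Probe sets with a mean signal of at least 33.6, the 40th percentile, were kept, and the brightest per gene gave 14061 genes. At the filter, KIF1A lay just under it (mean 25.4) and KIF6 just over it (39.0). The 8 kinesins under it were KIF17, KIF1A, KIF21B, KIF24, KIF26B, KIF27, KIF2B and KIF7, with signals of 1.4 to 55.6.

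Log2(signal + 16) was fitted with 6 group means in limma 3.58.1 (R 4.3.3) with a trended prior, Benjamini-Hochberg adjustment over all genes and a threshold of 0.05. The procedure was tested on simulated data with larger changes than those of the mitotic kinesins called after siKDM3A, so that test does not bear on them. A change is siKDM3A minus the average of both control group means, and a role's median is over its genes past the filter. Probe-set p-values are adjusted over all kept probe sets. Figures used matplotlib 3.10.9 (Python 3.11.15). Promoter motifs were searched in 250 bases before the start.

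The members, roles, partner lists and named genes were chosen with earlier results of these data known. Named are the kinesin-2 genes, every kinesin past the threshold after siKDM3A, up to 5 of smallest p per role in the other comparisons, up to 4 partners of smallest p per list, and the 5 genes most like KIF3B. NUSAP1 and BIRC5 in SW780 were named beyond this rule, after their values were seen. Alternatives were the pseudocount, filter, scaling, probe sets, control siRNA, prior variance, replicate block, lines fitted alone and each array left out.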

Additional observations from a re-analysis of the deposited data

Results flagged for a closer look

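The response of KIF1B to siKDM3A differed between the lines by a test of the difference itself. The change in SW780 was 0.45 and that in A549 was -0.04, a difference of 0.49 ± 0.10 log2 units (limma, adjusted p = 0.0250). The arrays behind it are 1574 and 1598 in SW780 siKDM3A and 1440 and 1376 in A549 siKDM3A, with siEGFP at 1278 and 1277 in SW780 and at 1634 and 1670 in A549. The call held without either SW780 siFFluc array and without either A549 siEGFP array, and it was lost without any of the other 8 (adjusted p from 0.0512 to 0.148). It was also lost against siEGFP alone (0.0533), against siFFluc alone (0.0534), with division by the array median (0.24, adjusted p = 0.159), with probe sets averaged, with an untrended prior and on both other probe sets (0.03 and 0.19).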

How the results depend on the processing

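Of 36 tested results for named kinesins, 18 stayed past the threshold whichever array was omitted, and 17 of these did so also under every other alternative (other probe sets aside). The 18 were all 16 named differences between the lines and 2 of the 20 named results that compare siRNAs, namely KIF3B and KIF1B in SW780 after siKDM3A. That decrease of KIF3B ranged from -1.37 to -0.89. Counted among the 16 are KIF26A, a description because it passed the filter through A549, and KIF3B, whose A549 controls entered the selection. The 16 were up to 5 of smallest p per role out of 27 kinesins called between the lines, while every call after siKDM3A was named. That choice partly set how many of the 16 stayed, so the shares of the 16 and of the 20 are not like for like. The number of called kinesins moved by more than 1.5 times as follows, by limma throughout. With arrays divided by their medians it was 5 (4 higher, 1 lower) instead of 3 in A549, 4 (2 and 2) instead of 9 in SW780, 2 (both lower) instead of 1 for the difference in response, and 2 and 1 instead of 4 and 3 for siFFluc minus siEGFP in A549 and SW780, while all genes called shifted from 749 higher and 893 lower to 2212 and 406 in A549 and from 798 and 865 to 282 and 1251 in SW780. With siEGFP as the only control it was 0 in A549 and 3 in SW780, and the difference in response had 0 under either control alone (6 and 7 at an unadjusted p under 0.05). An untrended prior gave 0 in A549 (5 at an unadjusted p under 0.05), 5 in SW780, 0 for the difference in response (6), and 0 between the controls in A549 (5) and SW780 (9). Lines fitted alone gave 5 in SW780 after siKDM3A and 0 between its controls (10). Averaging probe sets gave 1 between the controls of A549. Leaving out 1 array gave 0 to 3 in A549, 4 to 11 in SW780, 0 to 2 for the difference in response, 0 to 4 and 0 to 6 between the controls of A549 and SW780, and 25 to 28 between the lines. Deviations of same-numbered arrays correlated at -0.03 to 0.02 over genes, so no large shift shared by replicate number was seen. These correlations cannot show whether same-numbered arrays were handled together. A replicate block gave 3 calls in A549, 9 in SW780 and 2 instead of 4 between the controls of A549. Some probe sets turned the sign. These were KIF5B in SW780 (-0.14), KIF13A in SW780 (0.19, a dim probe set), KIF3A between lines (-0.017), and KIF1B between lines, at 0.15 with probe sets averaged and 0.75 and 0.016 on its other probe sets. Of 22 kinesins with several kept probe sets, 13 had all changes of 1 sign in A549, 14 in SW780 and 16 between lines. The cause of these shifts was not tested. Signals near the filter limit KIF5C in A549 and KIF26A in SW780.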
